A study of Homo sapiens and Mus musculus with 7 samples.

Results

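The genes described here encode respiratory complexes II to V, with their assembly factors, in HEL cells. HEL is a human erythroleukaemia line in which hemin is used to raise haemoglobin expression. Members were chosen by symbol, as every gene named SDHA to SDHD, SDHAF, UQCR, COX followed by a digit, or ATP5. This gave 55 of the 14920 genes in the RNA-seq table, on 89 transcript rows, and 0 pseudogenes were among them. They comprised 38 structural subunits (4 of complex II, 8 of complex III, 11 of complex IV and 15 of complex V) and 11 assembly factors (2 for complex II and 9 for complex IV). The other 6 carry such a name without being a classical subunit and are given apart.

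The groups were KAP1 knockdown cells with hemin, KAP1 knockdown cells without hemin, control cells with hemin and control cells without hemin, with 1 library each from 250 ng of total RNA. Hemin was given at 50 µM for 5 days. KAP1, the product of TRIM28, is a corepressor that KRAB zinc finger proteins bring to chromatin. The means of knockdown, and whether the cells were a clone or a pool, were not given in the sources used here. Control columns are headed Ctrl and were matched to the HEL samples labelled KAP1 WT, the other HEL genotype. With 1 library a group no difference has a replicate check and no p-value is given, so cultures and conditions cannot be told apart.

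The respiratory chain passes electrons from metabolic fuels to oxygen in the inner mitochondrial membrane. Complex II, succinate dehydrogenase, takes electrons from succinate to ubiquinone, and complex III hands them from ubiquinol to cytochrome c. Complex IV, cytochrome c oxidase, reduces oxygen, and complex V, ATP synthase, uses the proton gradient built by the chain to make ATP. Complexes III, IV and V also hold subunits encoded by mitochondrial DNA, which are not analysed here. Maturing red cells lose their mitochondria, and heme made in those mitochondria goes into haemoglobin.

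Libraries held between 23493178 and 41153304 reads on the chosen transcripts, 1 transcript per gene. Levels are given in scaled TPM, reads per transcript length brought to a common depth, so they can be compared between genes. TRIM28 was at 190 scaled TPM in knockdown and 400 in control cells with hemin, and at 317 and 421 without hemin, which gives log2 ratios of -1.07 and -0.41. TRIM28 is 1 of 5 rows deposited as whole numbers, and how those rows were made is unknown, so the check it gives of the labels is weak. The erythroid label was borne out by globin genes, with 13 erythroid markers in the table, while 0 of 4 lymphoid markers had a row. Cells of the knockdown and control libraries also differed elsewhere. The summed level of 4 mast cell and eosinophil markers was 36.2 scaled TPM in knockdown and 760 in control cells with hemin, and 20.0 and 1489 without hemin. That of 7 megakaryocyte markers was 1459 and 1138 with hemin, and 1622 and 2411 without. That of 5 monocyte markers was 106 and 192 with hemin, and 69.2 and 89.4 without. Single markers within the megakaryocyte and monocyte sums went both ways. ITGA2B, the highest megakaryocyte marker, was at 874 and 891 in knockdown and control cells with hemin, and 1107 and 1989 without. THBS1 was at 209 and 4.83 with hemin, and 72.6 and 4.28 without. Of 6 megakaryocyte markers reaching 5 scaled TPM, 4 were higher and 2 lower in the knockdown with hemin, and 3 and 3 without. Of 3 such monocyte markers, 1 was higher and 2 lower in each hemin state. The part of these differences in the results below was not tested.

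Respiratory subunits were abundant in each of the 4 libraries. The 38 subunits together reached 13833 scaled TPM in knockdown and 11828 in control cells with hemin, and 14309 and 12357 without hemin. Complex V gave the highest sum in every library and complex II the lowest. ATP synthase subunits summed to 6833 and 5775 scaled TPM in knockdown and control cells with hemin, and to 7028 and 6305 without. Cytochrome oxidase subunits summed to 3990 and 3352 with hemin, and to 4136 and 3506 without. Complex III gave 2403 and 2223 with hemin, and 2593 and 2100 without. Complex II gave 607 and 478 with hemin, and 552 and 446 without. Each of these sums was thus higher in the knockdown library than in its control, in both hemin states. The median subunit level was not always so. Without hemin it was 309 in knockdown and 358 in control cells for complex IV, and 124 in each for complex III. With hemin these medians were 394 and 344, and 172 and 119. For complexes II and V the median was higher in the knockdown in both states. The highest gene was UQCRH, the hinge protein of complex III, at 1378 and 1423 scaled TPM in knockdown and control cells with hemin, and 1663 and 1317 without. ATP5B, the catalytic beta subunit of ATP synthase, followed at 1338 and 985 with hemin and 1281 and 1244 without. COX6B2, the testis form of a complex IV subunit, was the lowest at 0.879 and 1.24 scaled TPM with hemin and 1.22 and 1.19 without, on 24 to 38 reads. It was the sole member under the floor of 5 scaled TPM in the higher library of a pair, so 54 members entered the comparisons. 

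The main comparison asked how these genes stand in knockdown cells against control cells. Most members lay within 1.5-fold, the limit used for counting, and the ones beyond it went both ways. Without hemin 11 of 54 members were at least 1.5-fold higher in the knockdown, where 17.8% of all 10879 genes at the floor were higher, and 4 were lower, where 17.1% were. In percent these members are 20.4% higher and 7.41% lower. The members' median log2 ratio was 0.11, against 0.03 over all genes. With hemin 15 members, or 27.8%, were higher against 15.1% of 10904 genes, and 5, or 9.26%, were lower against 12.8%. Their median was 0.29, against 0.01 over all genes. At 2-fold 4 members were higher and 1 lower with hemin, where 6.01% and 4.11% of genes were, and 2 were higher and 0 lower without, where 6.74% and 6.43% were. The median, like the shares, was scaled by trimmed means, and plain sums raised it to 0.39 with hemin and 0.22 without, together with all genes. With hemin the median was 0.33 for subunits and 0.16 for assembly factors, and without hemin 0.20 and -0.16. Within complex IV this order depended on the processing. Without hemin its medians were 0.19 for subunits and 0.54 for assembly factors at a floor of 20 scaled TPM, and -0.06 and -0.09 with the trend on transcript length removed.

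**Figure D1:**
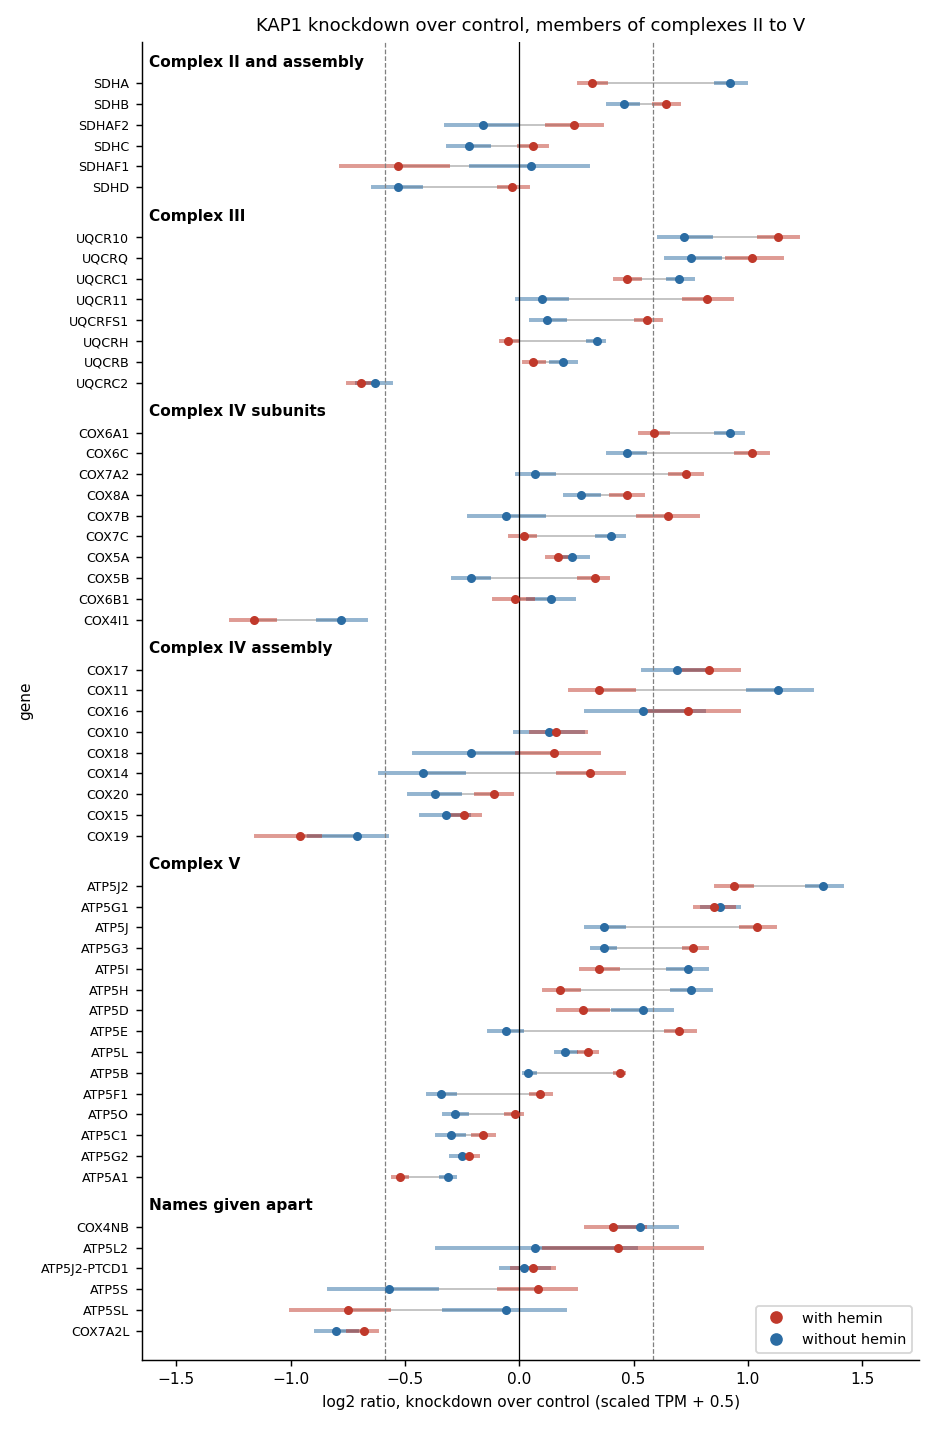
Log2 ratio of knockdown over control for the 54 members at the floor, grouped by complex, with hemin (red) and without (blue). Points are ratios of 1 library to 1 library, coloured bars are 95% counting intervals and dashed lines mark 1.5-fold; COX4I1 stands furthest left at -1.16 with hemin and ATP5J2 furthest right at 1.33 without.

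Across both hemin states 6 members were at least 1.5-fold higher in the knockdown, or 11.1% against 9.00% of 10621 genes, and 4 were lower, or 7.41% against 6.77%. These shares are near the background. The 6 were UQCR10 and UQCRQ of complex III, COX6A1 and the copper chaperone COX17 of complex IV, and ATP5G1 and ATP5J2 of complex V. The 4 were UQCRC2 of complex III, COX4I1 and the assembly factor COX19 of complex IV, and COX7A2L, a factor in joining complexes III and IV into supercomplexes. Complexes III and IV therefore held members on both sides, while complex V held none that was lower by 1.5-fold in either state and complex II none that passed in both. Of all 54 members, 30 had a ratio above 0 in both states and 12 below 0 in both. The same count over all genes was not made. Taken singly, 39 members were above 0 with hemin and 33 without, where 5506 of 10904 and 5632 of 10879 genes were.

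**Figure D2:**
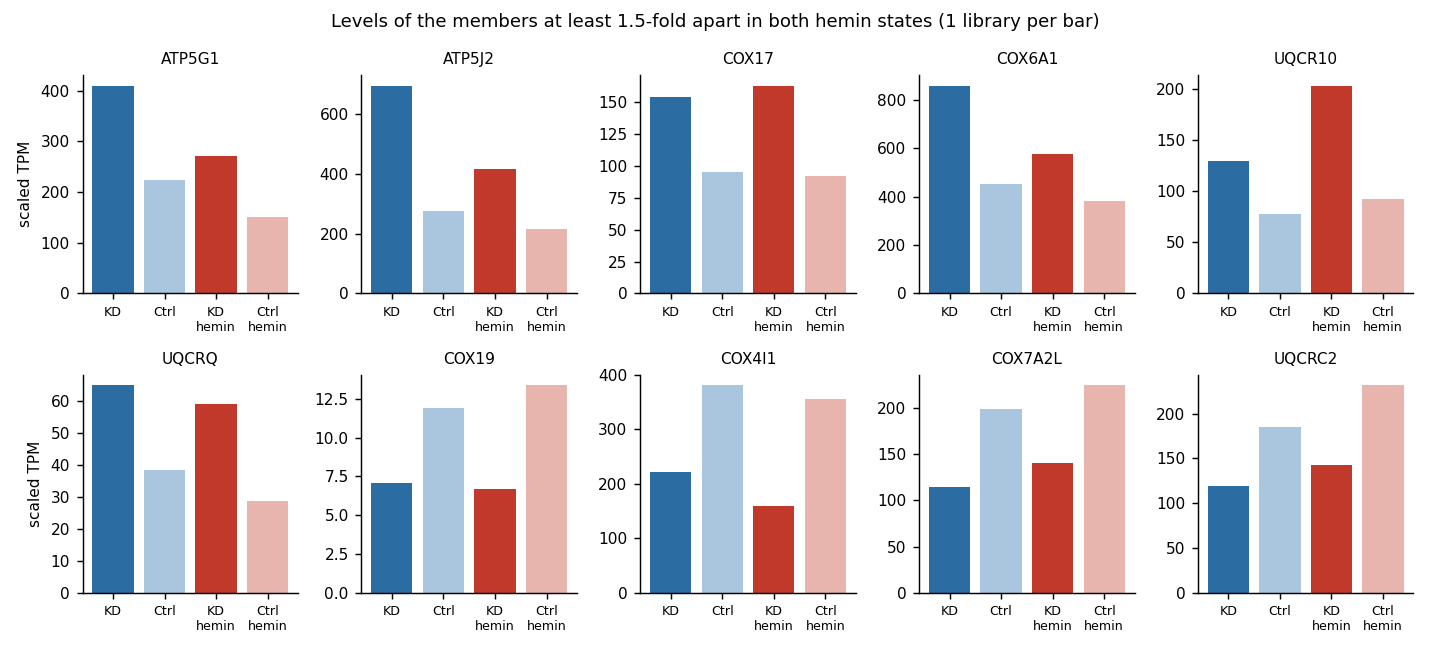
Levels in scaled TPM of the 10 members at least 1.5-fold apart in the same direction with and without hemin, 1 library per bar, knockdown (KD) left of control (Ctrl). The upper row and UQCRQ are higher in both knockdown bars, such as UQCR10 at 203 against 92.4 with hemin, and the other 4 are lower, such as COX4I1 at 159 against 356.

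The upstream sequences of 4 of these members are printed to show what a motif search reads. They are the 150 bases before the annotated start, from RefSeq on GRCh38.p14, 5′ to 3′ on the gene's strand. Capitals mark a match to the NRF1 core, a GC-rich stretch of 10 letters with 1 free base that is bound by NRF1, a nuclear activator of respiratory genes. UQCR10 (chr22:29767219-29767368, plus strand) and COX17 (chr3:119677407-119677556, minus strand) were higher in the knockdown. UQCRC2 (chr16:21953211-21953360, plus strand) and COX7A2L (chr2:42361218-42361367, minus strand) were lower.
UQCR10: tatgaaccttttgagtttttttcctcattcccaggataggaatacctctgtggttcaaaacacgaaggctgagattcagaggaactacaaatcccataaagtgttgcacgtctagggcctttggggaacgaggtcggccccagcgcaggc
COX17: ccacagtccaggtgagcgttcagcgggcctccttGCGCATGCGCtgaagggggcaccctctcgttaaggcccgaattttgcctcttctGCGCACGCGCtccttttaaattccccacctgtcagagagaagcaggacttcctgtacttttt
UQCRC2: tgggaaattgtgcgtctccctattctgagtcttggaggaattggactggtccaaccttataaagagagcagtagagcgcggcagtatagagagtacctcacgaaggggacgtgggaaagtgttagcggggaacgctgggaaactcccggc
COX7A2L: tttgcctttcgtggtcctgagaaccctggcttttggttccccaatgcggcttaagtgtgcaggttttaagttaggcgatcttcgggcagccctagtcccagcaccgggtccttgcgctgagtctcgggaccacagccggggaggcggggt
COX17 held 2 matches and the other three stretches none. Over the 44 members with a promoter window of 250 bases before to 50 after the start, 11 held this motif, or 25.0%, against 6.28% of 27305 windows of all genes and 8.58% of 15843 of protein-coding genes. CCGGAAG, the core bound by ETS factors such as GABPA, was in 19 member windows, or 43.2%, against 10.7% and 14.2%. AAGATGGC, a form of the YY1 motif, was in 6, or 13.6%, against 3.03% and 3.91%. AAGGTCA, the half-site of ERR nuclear receptors, was in 5, or 11.4%, against 3.97% and 3.13%. Both strands were searched for each. Members with the ETS core had a median log2 knockdown ratio of 0.33 with hemin and 0.27 without, and members lacking it 0.12 and -0.06. For the NRF1 core these medians were 0.35 and 0.12 with a match and 0.18 and 0.06 without one. For the YY1 motif they were 0.32 and 0.25 with a match, and 0.24 and 0.07 lacking it. For the ERR half-site they were 0.30 and 0.20, and 0.21 and 0.08. The higher medians were thus not particular to 1 motif. A match describes letters in a window and says nothing of binding, and none of these splits was tested.

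Complex II has 4 subunits, and their ratios were far apart in cells without hemin. SDHA, the flavoprotein that oxidises succinate, was at 153 scaled TPM in knockdown and 80.9 in control cells without hemin, 1.89-fold higher (log2 0.92, 95% counting interval 0.86 to 0.99). With hemin it was at 110 and 88.0, a log2 ratio of 0.32 (0.26 to 0.38). SDHA has near-identical pseudogene copies in the genome, so its reads may be shared. SDHB, the iron-sulphur subunit, was at 294 and 188 with hemin, 1.56-fold higher (0.64, 0.59 to 0.70), and at 275 and 200 without (0.46). The membrane anchors stood lower. SDHC was at 74.0 and 70.9 with hemin (0.06) and at 49.5 and 57.6 without (-0.22). SDHD was at 129 and 131 with hemin (-0.03) and at 73.9 and 107 without (-0.53, -0.64 to -0.43). Both hydrophilic subunits were thus above their controls in both states, and both anchors were below without hemin. The assembly factors SDHAF2, which serves flavin attachment to SDHA, and SDHAF1, which serves SDHB, had ratios of 0.24 and -0.53 with hemin and -0.16 and 0.05 without.

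Complex III had the highest subunit medians, 0.52 with hemin and 0.26 without. Its counts, sums and medians leave out the subunit CYC1, whose name the rule does not match. Its small subunits led. UQCR10 was at 203 scaled TPM in knockdown and 92.4 in control cells with hemin, 2.19-fold higher (1.13, 1.05 to 1.22), and at 129 and 77.9 without (0.72, 0.61 to 0.84). UQCRQ, which lies next to cytochrome b, was at 58.9 and 28.8 with hemin, 2.02-fold higher (1.02, 0.91 to 1.15), and at 65.0 and 38.4 without (0.75, 0.64 to 0.88). UQCR11 was at 81.2 and 45.8 with hemin (0.82), but at 75.2 and 70.2 without (0.10). In contrast UQCRH had ratios of -0.05 and 0.34, and UQCRB, another small subunit, 0.06 and 0.19. The core pair of the complex split. UQCRC1 was at 200 and 144 with hemin (0.47) and at 268 and 165 without (0.70), while UQCRC2 was at 143 and 232 with hemin, 1.62-fold lower (-0.69, -0.75 to -0.64), and at 119 and 185 without (-0.63, -0.71 to -0.56). UQCRFS1, the Rieske iron-sulphur protein, was at 241 and 163 with hemin (0.56) and at 178 and 163 without (0.12).

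In complex IV the subunit medians were 0.40 with hemin and 0.19 without, and COX4I1 was the 1 subunit at least 1.5-fold lower in either state. COX4I1, the ubiquitous form of the regulatory subunit 4, was at 159 scaled TPM in knockdown and 356 in control cells with hemin, 2.23-fold lower (-1.16, -1.26 to -1.07), and at 222 and 381 without, 1.71-fold lower (-0.78, -0.88 to -0.67). COX6A1, the non-muscle form of subunit 6A, was at 575 and 382 with hemin, at the limit of 1.5-fold (0.59, 0.53 to 0.65), and at 860 and 454 without, 1.89-fold higher (0.92, 0.86 to 0.98). COX4I1 was therefore below both its controls and COX6A1 above both. COX6C was at 299 and 147 with hemin, 2.02-fold higher (1.02, 0.95 to 1.09), and at 232 and 168 without (0.47). COX7A2 was at 351 and 212 with hemin (0.73) and at 269 and 257 without (0.07), and COX7B at 286 and 182 (0.65) and at 192 and 200 (-0.06). Ratios of COX5A, COX5B, COX6B1, COX7C and COX8A, all structural subunits, lay between -0.02 and 0.47 with hemin and between -0.21 and 0.40 without. The alternative isoforms COX4I2, COX6A2, COX7A1, COX7B2 and COX8C, and UQCRHL of complex III, were not analysed here, so isoform switches in those pairs could not be followed.

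Factors that build complex IV had medians of 0.16 with hemin and -0.21 without. At a floor of 20 scaled TPM, which fewer of them reach, these became 0.33 and 0.54. COX17, which hands copper to the chaperones of the metal centres, was at 163 and 91.7 scaled TPM in knockdown and control with hemin (0.83, 0.70 to 0.96), and at 154 and 95.4 without (0.69, 0.54 to 0.84). COX19, another small protein of copper delivery, was at 6.68 and 13.4 with hemin, 1.94-fold lower (-0.96, -1.15 to -0.87), and at 7.08 and 11.9 without (-0.71, -0.92 to -0.58). The interval comes from reads alone while the ratio carries a pseudocount of 0.5, which pulls ratios of low genes such as COX19 towards 0. COX11, a factor for the CuB centre, was at 108 and 49.1 without hemin, 2.19-fold higher (1.13, 1.00 to 1.28), and at 59.8 and 46.6 with hemin (0.35). Its transcripts disagreed without hemin, with ratios of 1.14 and 1.13 for the short forms NM_001162861 and NM_001162862 and 0.26 for NM_004375. COX16 had ratios of 0.74 and 0.54 with and without hemin. The heme A enzymes COX10 and COX15 stayed within 1.5-fold, at 0.16 and -0.24 with hemin and 0.13 and -0.32 without, as did COX18 and COX20, which serve insertion of the COX2 subunit.

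Complex V is given by part of the enzyme, and the ranges of the parts overlapped. The F1 head and central stalk had medians of 0.28 with hemin and -0.06 without over 5 subunits. ATP5A1, the alpha subunit of the head, was at 528 scaled TPM in knockdown and 757 in control cells with hemin (-0.52, -0.55 to -0.49), and at 552 and 683 without (-0.31). Its partner ATP5B had ratios of 0.44 and 0.04, so the paired head subunits stood apart. ATP5E, the epsilon subunit, was at 713 and 438 with hemin (0.70) and at 558 and 582 without (-0.06). ATP5C1 and ATP5D, the gamma and delta subunits, had ratios of -0.16 and 0.28 with hemin and -0.30 and 0.54 without. In the peripheral stalk ATP5J, coupling factor 6, was at 350 and 170 with hemin, 2.06-fold higher (1.04, 0.97 to 1.12), and at 280 and 216 without (0.37). ATP5H had ratios of 0.18 with hemin and 0.75 without, ATP5O of -0.02 and -0.28, and ATP5F1 of 0.09 and -0.34. All 3 small membrane subunits were above their controls in both states. ATP5J2, the f subunit, was at 416 and 217 with hemin, 1.92-fold higher (0.94, 0.86 to 1.02), and at 697 and 277 without, 2.52-fold higher (1.33, 1.26 to 1.41). Its 4 transcripts gave 0.51 to 1.47 without hemin. ATP5I and ATP5L, the e and g subunits, had ratios of 0.35 and 0.30 with hemin and 0.74 and 0.20 without.

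The rotating c ring is built from 1 mature protein encoded by the genes ATP5G1, ATP5G2 and ATP5G3, which differ in their import peptides. ATP5G1 was at 272 scaled TPM in knockdown and 150 in control cells with hemin (0.85, 0.77 to 0.94), and at 410 and 223 without (0.88, 0.80 to 0.96). ATP5G3 was at 187 and 110 with hemin (0.76) and at 190 and 147 without (0.37). ATP5G2 was at 630 and 735 with hemin (-0.22) and at 606 and 721 without (-0.25). The sum of the genes differed less than their mix, at 1089 and 995 with hemin and 1206 and 1091 without. ATP5G1 made up 24.9% of that sum in the knockdown and 15.1% in the control with hemin, and 34.0% and 20.5% without. ATP5G2 made up 57.9% and 73.8% with hemin, and 50.2% and 66.1% without, and was the largest source in each of the 4 libraries.

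**Figure D3:**
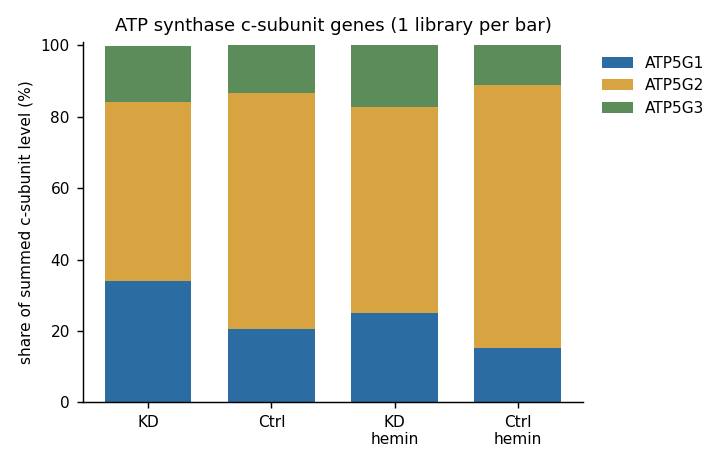
Share of the summed c-subunit level in scaled TPM that came from each gene, in percent, 1 library per bar. The ATP5G1 share is larger in the knockdown than in the control on its right, 34.0% against 20.5% without hemin and 24.9% against 15.1% with it.

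Of the names given apart, COX7A2L was at 140 scaled TPM in knockdown and 225 in control cells with hemin (-0.68, -0.75 to -0.62), and at 114 and 199 without (-0.80, -0.89 to -0.71). Its relative COX7A2 thus went the other way with hemin. ATP5SL, now DMAC2 and an assembly factor of complex I, was at 8.55 and 14.7 with hemin (-0.75) and at 10.1 and 10.5 without (-0.06). ATP5S, ATP5L2 and the read-through ATP5J2-PTCD1 were low, at 8.08 to 20.0 scaled TPM, and within 1.5-fold. The read-through shares exons with ATP5J2, and its transcript is also listed under PTCD1. COX4NB, now EMC8, is a subunit of the endoplasmic reticulum membrane complex that owes its old name to its place beside COX4I1.

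COX4NB and COX4I1 start back to back, 150 bases apart, and stood on opposite sides. COX4NB was at 28.9 scaled TPM in knockdown and 21.6 in control cells with hemin (0.41), and at 36.2 and 24.8 without (0.53), against -1.16 and -0.78 for COX4I1. Of 10 pairs of a member and a divergent neighbour under 1000 bases away, 3 had opposite signs in both hemin states and 2 the same sign in both. The same counts over all divergent gene pairs were not made, so these cannot be set against a background. The other opposite pairs were ATP5A1 with HAUS1, an augmin subunit gene at 0.44 with hemin and 0.51 without, and COX15 with CUTC at 0.30 and 0.77. SDHA and its neighbour CCDC127 are 166 bases apart, and CCDC127 had ratios of 0.03 with hemin and -0.36 without. The gaps between these starts are printed because each serves as upstream sequence for both genes. They are from RefSeq on GRCh38.p14, on the member's strand, from the base after the neighbour's start to the base before the member's: COX4I1 at chr16:85799545-85799694, plus strand, COX15 at chr10:99732128-99732233, minus strand, and SDHA at chr5:218154-218319, plus strand. Capitals mark the NRF1 core in SDHA and the ETS core CCGGAAG in COX15.
COX4I1: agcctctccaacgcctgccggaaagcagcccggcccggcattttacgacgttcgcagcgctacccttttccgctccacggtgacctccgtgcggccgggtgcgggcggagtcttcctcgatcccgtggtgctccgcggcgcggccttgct
COX15: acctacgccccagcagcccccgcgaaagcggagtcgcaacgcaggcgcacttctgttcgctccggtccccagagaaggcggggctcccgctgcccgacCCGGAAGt
SDHA: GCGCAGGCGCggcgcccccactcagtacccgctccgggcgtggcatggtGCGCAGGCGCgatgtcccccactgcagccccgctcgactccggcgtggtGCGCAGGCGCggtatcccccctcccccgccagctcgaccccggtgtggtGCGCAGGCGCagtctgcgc
The SDHA gap held the NRF1 core 4 times, and the gap of COX4I1 held none of the 4 motifs searched.

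Whether hemin changed the knockdown ratio was read from the difference of the log2 ratios, with hemin minus without, over the same 4 libraries. Its median over the members was 0.13. The difference reached 1.5-fold upward in 7 members, where 12.8% of 10621 genes did, and downward in 3, where 11.6% did, or 13.0% and 5.56% of members. Upward were ATP5E (0.77, counting interval 0.67 to 0.86), COX14 (0.73), UQCR11 (0.72), COX7B (0.71), ATP5J (0.67), COX7A2 (0.66) and ATP5S (0.65). Of these 7, 5 are subunits of complexes III to V. Such subunits are most of the 54 members at the floor, with 8 of complex III, 10 of complex IV and 15 of complex V. Downward were COX11 (-0.78, -0.98 to -0.58), ATP5SL (-0.69) and SDHA (-0.60, -0.69 to -0.51). The calls of COX11 and ATP5S depend on the transcript chosen. The COX11 transcript NM_004375 had ratios of 0.32 with hemin and 0.26 without, and the ATP5S transcript NM_015684 had 0.07 and 0.30. The counting interval left out 0 in 43 of 54 members, which covers counting error only. The same share over all genes was not computed, so this count says nothing particular of the members. The knockdown library with hemin also held the most structural RNA without a poly-A tail, 1792 scaled TPM over 5 genes against 1143 in the control with hemin, and 325 and 470 without. Its part in these differences was not tested.

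Hemin itself went with little difference in these genes. In knockdown cells 2 of 54 members were at least 1.5-fold higher with hemin, where 12.1% of 10828 genes were, and 4 were lower, where 10.7% were. The higher ones were SDHD, at 129 scaled TPM with hemin and 73.9 without (0.80), and UQCR10, at 203 and 129 (0.65). The lower ones were COX11 at 59.8 and 108 (-0.85), ATP5J2 at 416 and 697 (-0.75), ATP5G1 at 272 and 410 (-0.60) and ATP5I at 375 and 566 (-0.59). The COX11 value is lost with its transcript of most reads, NM_004375, at 53.7 and 52.8 (0.02). Those of ATP5J2 and ATP5I also depend on the transcript. The other transcripts of ATP5J2 had ratios of -0.84, -0.44 and -0.14, and the other transcript of ATP5I had -0.08. The second transcript of ATP5G1 had -0.66. In control cells 0 of 54 members were higher with hemin, where 9.26% of 10799 genes were, and 1 was lower, where 8.21% were. That gene was UQCR11, at 45.8 scaled TPM with hemin and 70.2 without (-0.61). No member passed in both genotypes, where 2.78% of 10465 genes were higher and 2.74% lower in both, and 0 members reached 2-fold in either genotype. At 2-fold 2.31% of genes were higher and 1.70% lower in knockdown cells, and 2.60% and 2.59% in control cells. The members' medians were 0.08 in knockdown and -0.03 in control cells. Erythroid markers summed to 77301 scaled TPM with hemin and 19755 without in knockdown cells, and to 61952 and 16590 in control cells. Most of these sums came from HBG1, HBG2, HBA1 and HBA2. At least 1.5-fold higher with hemin were 6 of 12 markers at the floor in knockdown cells and 10 of 13 in control cells. TFRC was the 1 lower marker in each, at -0.71 and -1.34. GATA1 and KLF1 had -0.34 and -0.02 in knockdown cells, and 0.14 and 0.74 in control cells.

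**Figure D4:**
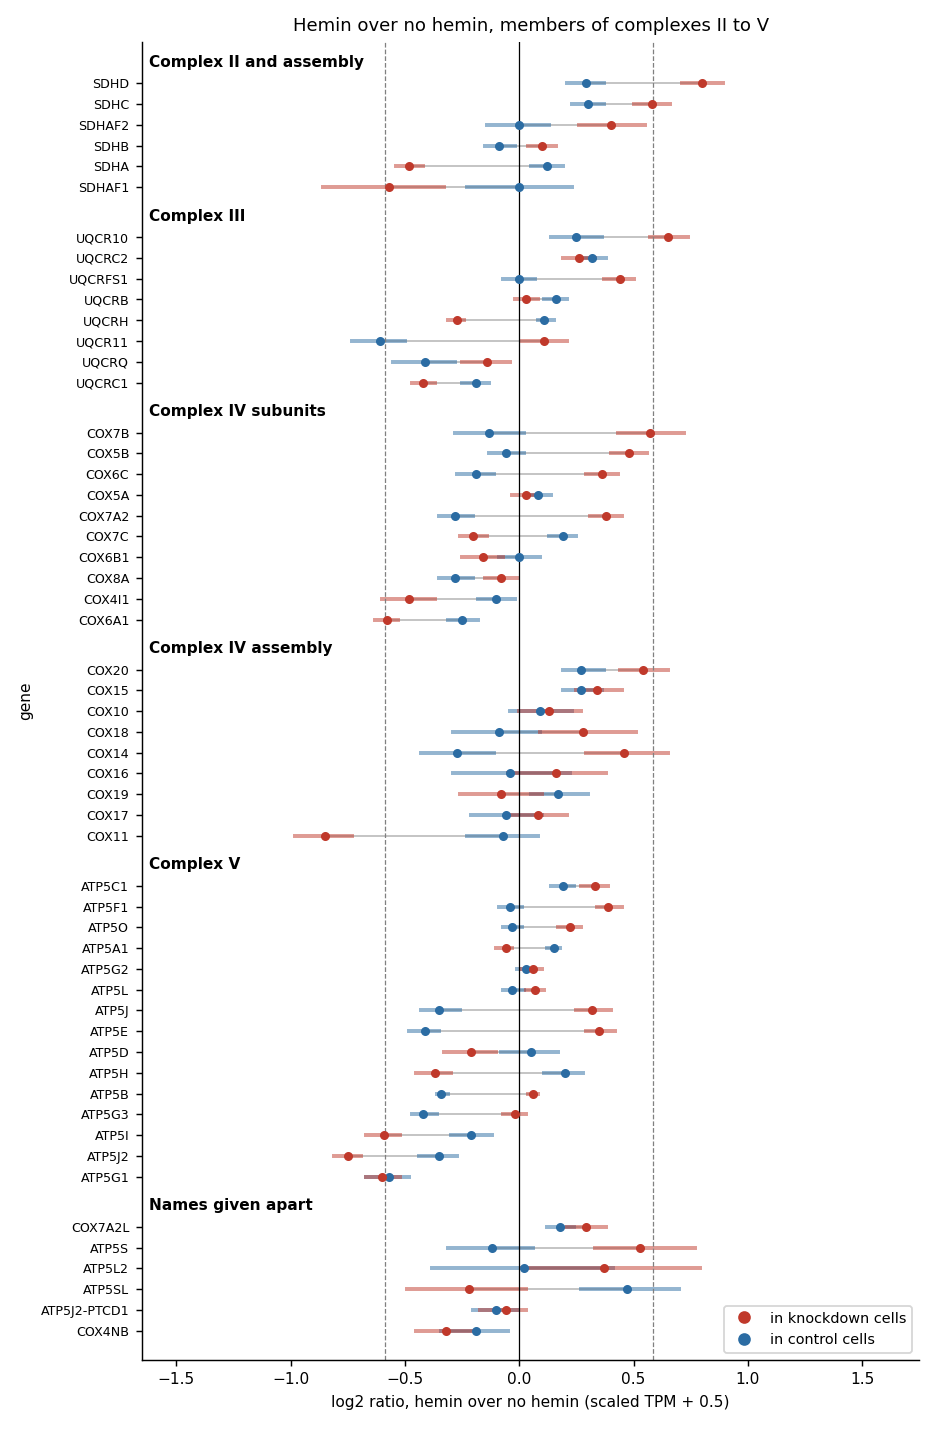
Log2 ratio of hemin over no hemin for the 54 members at the floor, grouped by complex, in knockdown cells (red) and control cells (blue), with 95% counting intervals. Nearly all points lie between the dashed lines at 1.5-fold; the furthest are SDHD at 0.80 and COX11 at -0.85, both in knockdown cells, the COX11 value resting on a short transcript.

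The other extremes of the hemin comparisons were within 1.5-fold. In knockdown cells they were SDHAF1 (-0.57) of complex II, UQCRC1 (-0.42) of complex III, COX7B (0.57) of complex IV and ATP5F1 (0.39) of complex V. In control cells they were SDHC (0.30) and SDHB (-0.09), UQCRC2 (0.32), COX20 (0.27) and COX7A2 (-0.28), and ATP5H (0.20) and ATP5G1 (-0.57). ATP5G1 was thus low with hemin in both genotypes. COX4I1 was at 159 scaled TPM with hemin and 222 without in knockdown cells (-0.48), and at 356 and 381 in control cells (-0.10).

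Members have short transcripts, and ratios moved with length in the whole table. The chosen transcripts of the members had a median length of 1147 nt against 2625 nt over all genes, and 26 members were up to 1000 nt. Lengths were recovered from the values, and a gene whose 4 read counts share a factor comes out too short by that factor. Genes up to 1000 nt had a median knockdown log2 ratio of 0.18 with hemin and 0.28 without, and the 26 short members 0.39 and 0.36. Of all genes of that length 25.7% with hemin and 32.9% without were at least 1.5-fold higher in the knockdown. With the trend on length taken out, the members' median was 0.15 with hemin and -0.08 without, with 9 members higher and 6 lower with hemin, and 6 higher and 6 lower without. COX4I1 then stood at -1.37 and -1.04, UQCR10 at 0.99 and 0.46, UQCRQ at 0.97 and 0.59, ATP5G1 at 0.66 and 0.60, and ATP5J2 at 0.74 and 1.06. The members that came inside 1.5-fold with hemin were ATP5E at 0.50, COX16 at 0.55, COX6A1 at 0.39, COX7A2 at 0.56, COX7B at 0.49 and SDHB at 0.53. Without hemin they were ATP5H at 0.48, ATP5I at 0.49, UQCRC1 at 0.55, UQCR10, COX17 at 0.42 and COX19 at -0.57. Those that came beyond it, all lower, were SDHAF1 at -0.64 with hemin, and ATP5S at -0.68, COX14 at -0.69 and SDHD at -0.72 without. The medians of the complexes without hemin, 0.00 for II, 0.19 for III, -0.06 for IV and 0.01 for V subunits, then lay nearer to 0.

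**Figure D5:**
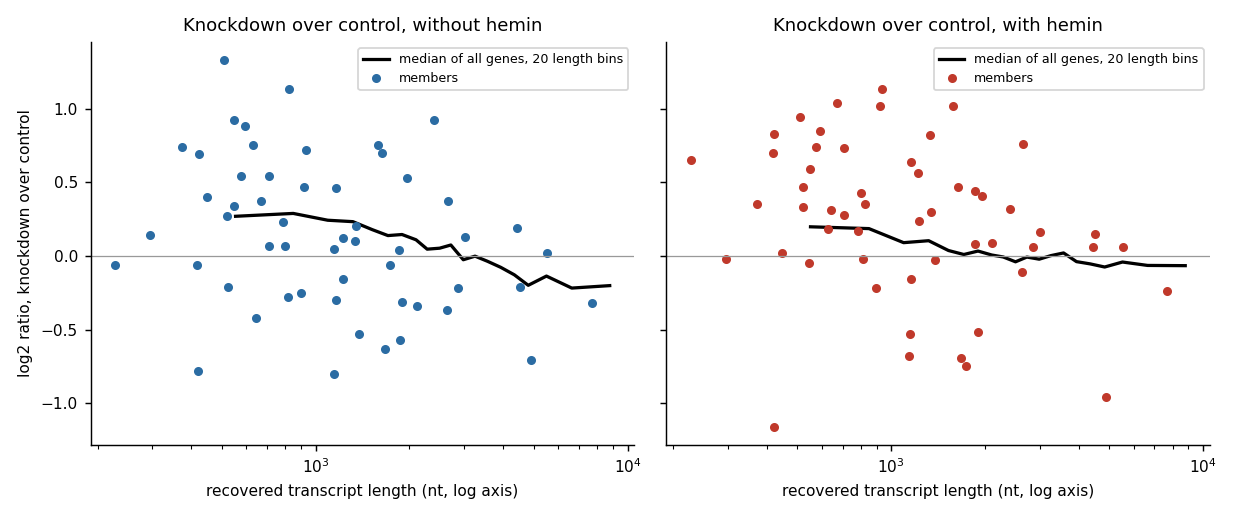
Knockdown over control log2 ratio against recovered transcript length on a log axis, without hemin (left) and with hemin (right). Points are the 54 members and the line is the median of all genes in 20 bins of equal gene number, which slopes down from short to long transcripts; COX4I1, at -0.78 and -1.16, lies far below it.

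Other genes of the pathway were read from lists of carriers, enzymes and factors. Electron carriers, with ubiquinone synthesis and the complex III subunit CYC1, had 6 of 15 genes higher in the knockdown with hemin and 5 without, 0 lower in either, and medians of 0.46 and 0.40. In percent 40.0% and 33.3% were higher, where 15.1% and 17.8% of all genes were. COQ2, which joins the ring and tail of ubiquinone, had ratios of 1.63 with hemin and 1.07 without. PDSS2, which makes the tail, had 0.91 and 0.63, COQ4 of the same pathway 0.61 and 0.86, and ETFB, a chain of the electron transfer flavoprotein, 0.78 and 1.05. These 4 were the carriers beyond 1.5-fold in both states. CYC1 was at 253 scaled TPM in knockdown and 184 in control cells with hemin (0.46), and at 396 and 222 without (0.83). In the TCA cycle 3 of 13 genes were higher in each state and 0 lower, with medians of 0.27 and 0.34. That is 23.1% in each, against the same 15.1% and 17.8%. FH, fumarase, which acts right after complex II, was at 81.6 and 28.7 scaled TPM in knockdown and control with hemin (1.49), and at 64.3 and 34.0 without (0.91). OGDH, of the oxoglutarate dehydrogenase complex, had 0.60 and 0.70.

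Further assembly factors of complexes III to V had 2 of 16 higher and 0 lower with hemin, and 3 and 2 without. Their shares of 12.5% and 18.8% higher are near the background of 15.1% and 17.8%. MNF1, now UQCC2 and a complex III assembly factor, was at 148 scaled TPM in knockdown and 70.6 in control cells with hemin (1.07), and at 236 and 110 without (1.10). It was also the sole pathway gene at least 1.5-fold lower with hemin in both genotypes (-0.67 in knockdown and -0.64 in control cells). Smaller ratios below 0 in both genotypes were not limited to it. Subunits and factors whose names the rule missed, apart from CYC1, had 0 of 4 beyond 1.5-fold with hemin and 1 without. That was ATPIF1, the inhibitor of ATP synthase, at 710 and 292 without hemin (1.28) and at 445 and 299 with it (0.57). Regulators had 0 of 14 beyond 1.5-fold with hemin, and 1 higher and 2 lower without. NRF1 itself had ratios of 0.22 with hemin and 0.47 without, GABPA of 0.19 and -0.31, and TFAM, the packaging and transcription factor of mitochondrial DNA, of -0.35 and -0.74. Of 10 genes used to follow mitochondrial content, 2 were higher and 1 lower with hemin, and 0 and 1 without. Over all genes 15.1% were higher and 12.8% lower with hemin, and 17.8% and 17.1% without, so 20.0% and 10.0% with hemin are near the background. The lower gene was TOMM20, an import receptor of the outer membrane, at 167 and 266 with hemin (-0.67) and at 124 and 248 without. In these bulk samples fewer mitochondria per cell and less RNA per gene cannot be told apart.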

How the data were processed

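RNA-seq values of 4 HEL libraries were used. The authors deposited RPKM values for single RefSeq transcripts, per the file headers. The submitters' processing notes name Bowtie and hg19, with no version or role, and further steps were not given in the sources used here. These RPKM were not scaled to depth. In each of the 24533 rows not holding whole numbers, values were whole multiples of a step (tolerance 0.0002 reads plus 2e-08 relative), which gave reads and lengths, 96.0% of them within 0.05 nt of a whole number. Reads sharing a common factor come out divided by it, and their interval is then too wide. A transcript with 0 reads in a library may be missing from the table.

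Each gene was represented by the transcript with the highest mean value. Library totals were corrected by the trimmed mean of M values (trims 0.3 and 0.05), giving factors of 1.03 for the knockdown with hemin, 1.01 for the knockdown without, 0.994 for the control with hemin and 0.965 for the control without. The mean library sum was set to 1000000 scaled TPM. The design assumed depth-scaled RPKM, so this step was needed. Ratios are log2 of scaled TPM plus 0.5, which understates changes of low genes. A gene entered a comparison when its higher library reached 5. Exact conditional 95% intervals on reads cover counting error only, as no molecular identifiers mark single molecules. Their median width was 0.15 to 0.17 on the log2 scale. Scripts were tested on simulated data. Python 3.11.15, numpy 2.4.6, pandas 2.3.3, scipy 1.17.1, statsmodels 0.14.6 and matplotlib 3.10.9 were used.

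Genes named are, in each comparison, the highest and lowest of each complex, every member beyond 1.5-fold in the same direction in both knockdown or both hemin comparisons or beyond 2-fold in any, the isoform groups, the complex II subunits, and pathway genes beyond 1.5-fold in both. Others were named after their values were seen, to fill out a complex. Members and lists were chosen with earlier results of these data known. ChIP libraries of the series were not used here.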

Additional observations from a re-analysis of the deposited data

Results flagged for a closer look

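COX14, an assembly factor of complex IV, had opposite knockdown ratios in the hemin states, 0.31 with hemin and -0.42 without on the log2 scale. It was the 1 member whose ratios had opposite signs, counting intervals clear of 0 in each state and a distance of at least 1.5-fold. For hemin against no hemin 6 members met the same conditions across the genotypes. ATP5E was at 0.35 in knockdown and -0.41 in control cells, ATP5J at 0.32 and -0.35, COX14 at 0.46 and -0.27, COX7A2 at 0.38 and -0.28, SDHA at -0.48 and 0.12, and UQCR11 at 0.11 and -0.61. Each sign rests on 1 library a group, and the difference was not tested across samples. The share of all genes meeting these conditions was not computed, so neither count can be set against a background. The distance between knockdown ratios alone was reached upward by 12.8% and downward by 11.6% of 10621 genes.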

How the results depend on the processing

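No paired analysis was possible because each group is 1 library, and for the same reason no library could be left out. Scaling decided most. The deposited values as they stand are not scaled to library depth. They moved the median of all genes by 0.22 for the knockdown with hemin and by -0.58 without. For hemin they moved it by 0.95 in knockdown cells and by 0.16 in control cells. The members' medians became 0.50, -0.46, 1.03 and 0.12, and the median difference of knockdown ratios between hemin states 0.92. For the knockdown 2 members were then lower with hemin, and 1 higher and 21 lower without. For hemin 44 were higher and 0 lower in knockdown cells, and 1 higher and 0 lower in control cells. On that scale the hemin ratios in knockdown cells turned to 0.36 for ATP5G1, 0.36 for ATP5I, 0.21 for ATP5J2 and 0.10 for COX11. Plain sums gave knockdown medians of 0.39 with hemin and 0.22 without, while moving all genes by 0.10 and 0.11. With the length trend removed, medians were 0.15 with hemin and -0.08 without for the knockdown, with 9 members higher and 6 lower with hemin and 6 higher and 6 lower without. For hemin in knockdown cells the median was 0.16, with 4 higher and 2 lower, and the difference between states 0.22. A floor of 20 left a knockdown median of 0.20 without hemin and 3 lower with hemin, and leaving out COX4NB, ATP5S, ATP5SL and COX7A2L also left 3 lower. Summed transcripts gave 2 lower with hemin in control cells. The transcript with the most reads turned the hemin ratio of COX11 in knockdown cells to 0.02. At a limit of 2-fold the knockdown counts were 4 higher and 1 lower with hemin, and 2 and 0 without, and for hemin 0 and 0 in knockdown cells and 0 lower in control cells. Of 42 member values beyond 1.5-fold, 24 stayed beyond it with the deposited values, 28 with the length trend removed, 40 with plain sums and 41 with equal medians. The cause of these shifts was not tested.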
